A study of Vitis vinifera with 15 samples.

Results

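The PR10 cluster of grapevine is a row of closely related genes on chromosome 5 that encode pathogenesis-related proteins of class 10. The 10 genes described here were chosen by their identifiers, within the range VIT_05s0077g01530 to VIT_05s0077g01700, out of 31924 genes in the expression table. The rule of the choice names no measured value, but earlier results of these data were known when it was made. Other genes of this range are described after the members. The 10 members are called by the last part of the identifier, so that g01580 stands for VIT_05s0077g01580. They are g01530, g01540, g01550, g01560, g01570, g01580, g01600, g01650, g01690 and g01700.

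PR10 proteins are small, acidic proteins of the cytosol that belong to the same superfamily as the major birch pollen allergen. Their fold encloses a large hydrophobic cavity that can hold flavonoids, cytokinins, fatty acids and other small ligands, and some members act as ribonucleases in vitro. Many PR10 genes are induced by fungi, bacteria, wounding or abscisic acid, while others are active in healthy roots, flowers, pollen or ripening fruit. In strawberry, the related Fra a proteins bind intermediates of the flavonoid pathway, and in opium poppy and meadow rue related proteins catalyse steps of alkaloid synthesis. The role of each single grape member is not given in the sources used here, so the members are told apart below by their place in the row and their level.

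Skin RNA of 5 table grape cultivars (Vitis vinifera by the labels) was sequenced with 3 libraries per cultivar, 15 in all. Neither the sample titles nor the study name a treatment. By the study's account the muscat aroma is found in Shine muscat, Midknight Beauty and Centennial Seedless and a strawberry aroma in Summer Black, and the unscented Victoria served as control. Shine muscat, Centennial Seedless and Victoria are lime green and Midknight Beauty and Summer Black dark red. All vines grew in a single vineyard and each replicate was taken from several bunches, so that 1 cultivar stands for the strawberry type and 1 for the neutral type, and cultivar and aroma type cannot be told apart for either. The labels give libraries 1, 2 and 3 of a cultivar as replicates at ripening, whereas the methods of the study assign the same numbers to 3 growth stages. They were treated as replicates, and if the methods are right the spread within a cultivar holds the difference between stages.

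Levels are FPKM, sequenced fragments scaled to the length of the transcript and to all mapped fragments of the library, so that genes can be compared. Each library summed to between 718652 and 786207 FPKM, with 9440 to 10976 genes at 0 in a library. Reads per gene were not recoverable from the FPKM, so the depth behind a single value is unknown. By the study's account, Shine muscat replicate 1 and Summer Black replicate 3 had clearly lower shares of mapped reads than the other libraries. What this did to their levels was not tested. Members of a gene family can be similar in sequence, although the sequences were not compared here. Reads that match several members could have been split or lost by the authors' counting. The level of any 1 member is therefore less certain than that of the cluster. The study places the strawberry aroma, that of Summer Black, chiefly in American grapes and their crosses. Its methods name only the PN40024 genome of grape for alignment. Whether reads of the members aligned equally well in all cultivars, Summer Black among them, was not tested. The files pair no identifier with a gene name, so the labelled tissue was not checked against marker genes of skin.

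PR10 transcripts were abundant in every library, and most of them came from g01580. Victoria held the highest summed level and Summer Black the lowest. In Victoria the 10 members summed to 2334, 3566 and 8226 FPKM in replicates 1, 2 and 3. In Summer Black the sums were 552, 537 and 1411 FPKM, all below the lowest library of Victoria. The muscat cultivars had means between those of Victoria and Summer Black. Shine muscat gave 1751, 1247 and 1783 FPKM and Centennial Seedless 1932, 2428 and 2098 FPKM. Midknight Beauty gave 970, 2857 and 3082 FPKM, so that its replicate 1 fell into the range of Summer Black, as did Shine muscat replicate 2, while its other libraries overlapped those of Victoria. As a share of all FPKM in a library, the cluster took from 0.0725% in Summer Black to 1.09% in Victoria replicate 3.

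**Figure D1:**
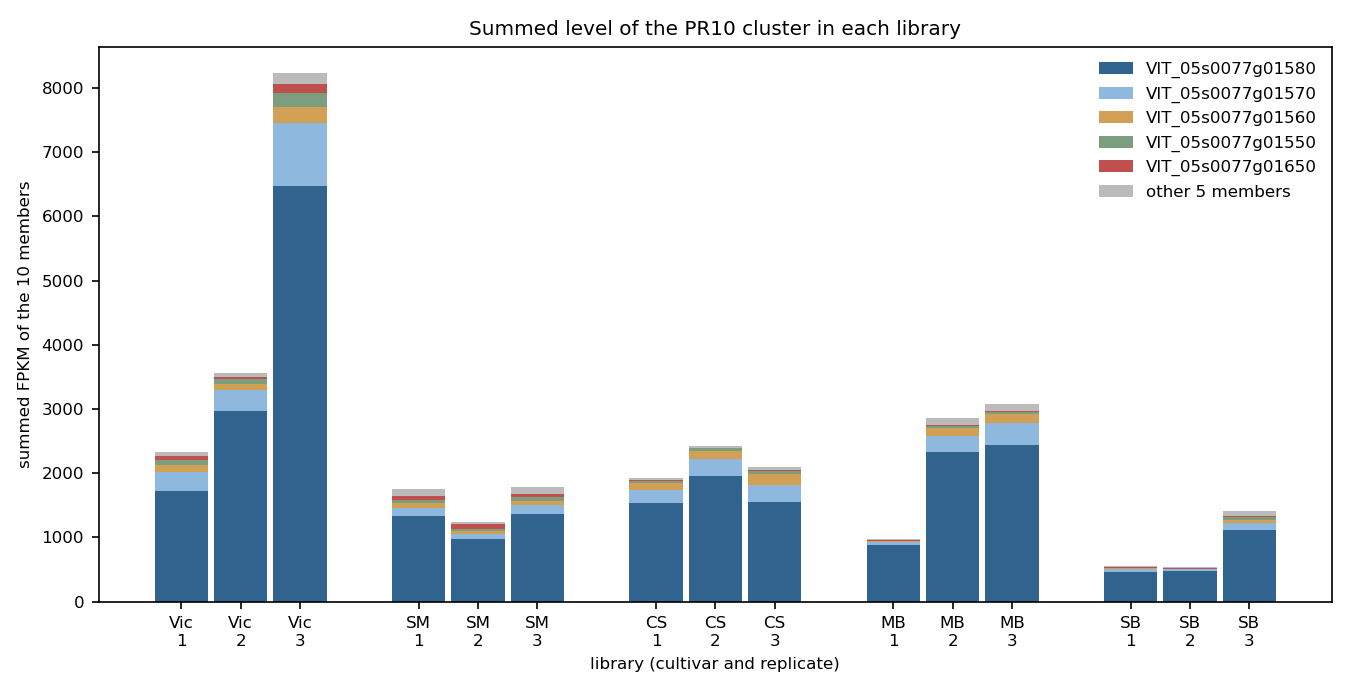
Summed FPKM of the 10 PR10 members (vertical axis) in each of the 15 skin libraries, grouped by cultivar (Vic, Victoria; SM, Shine muscat; CS, Centennial Seedless; MB, Midknight Beauty; SB, Summer Black), with the colours of a bar showing the share of each member. Victoria replicate 3 stands highest at 8226 FPKM, Summer Black replicate 2 lowest at 537 FPKM, and g01580 fills most of every bar.

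The gene g01580 alone made up between 73.8% and 90.2% of the summed level. By mean FPKM it ranked 28 among all genes of the table, and within single libraries its rank went from 14 in Victoria replicate 3 to 145 in Summer Black. The next member, g01570, ranked 320 by its mean. In contrast, g01690 reached no more than 7.56 FPKM and g01700 no more than 1.44 FPKM in any library. All 10 members passed the filter for testing, 1 FPKM or more in at least 3 libraries, which kept 18238 genes. Of the members, g01530, g01540, g01550, g01560, g01570, g01580 and g01650 were at or above 1 FPKM in all 15 libraries, g01690 in 12, g01600 in 10 and g01700 in 3.

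Ranked by mean FPKM, Victoria was the highest cultivar for 7 of the 10 members and the lowest for none, and Summer Black was the lowest for 7. Shine muscat was highest for g01530, Midknight Beauty for g01700 and Summer Black for g01690. Centennial Seedless was lowest for g01530 and g01690, and Midknight Beauty for g01650. Of the 40 pairs of neighbouring cultivars in the order of a member, 39 did not pass the test described below. Neighbours differ less in mean than cultivars farther apart in the order, and the share of such steps that passed over all genes was not computed. The 1 step that passed was that of g01650 from Shine muscat down to Summer Black.

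**Figure D2:**
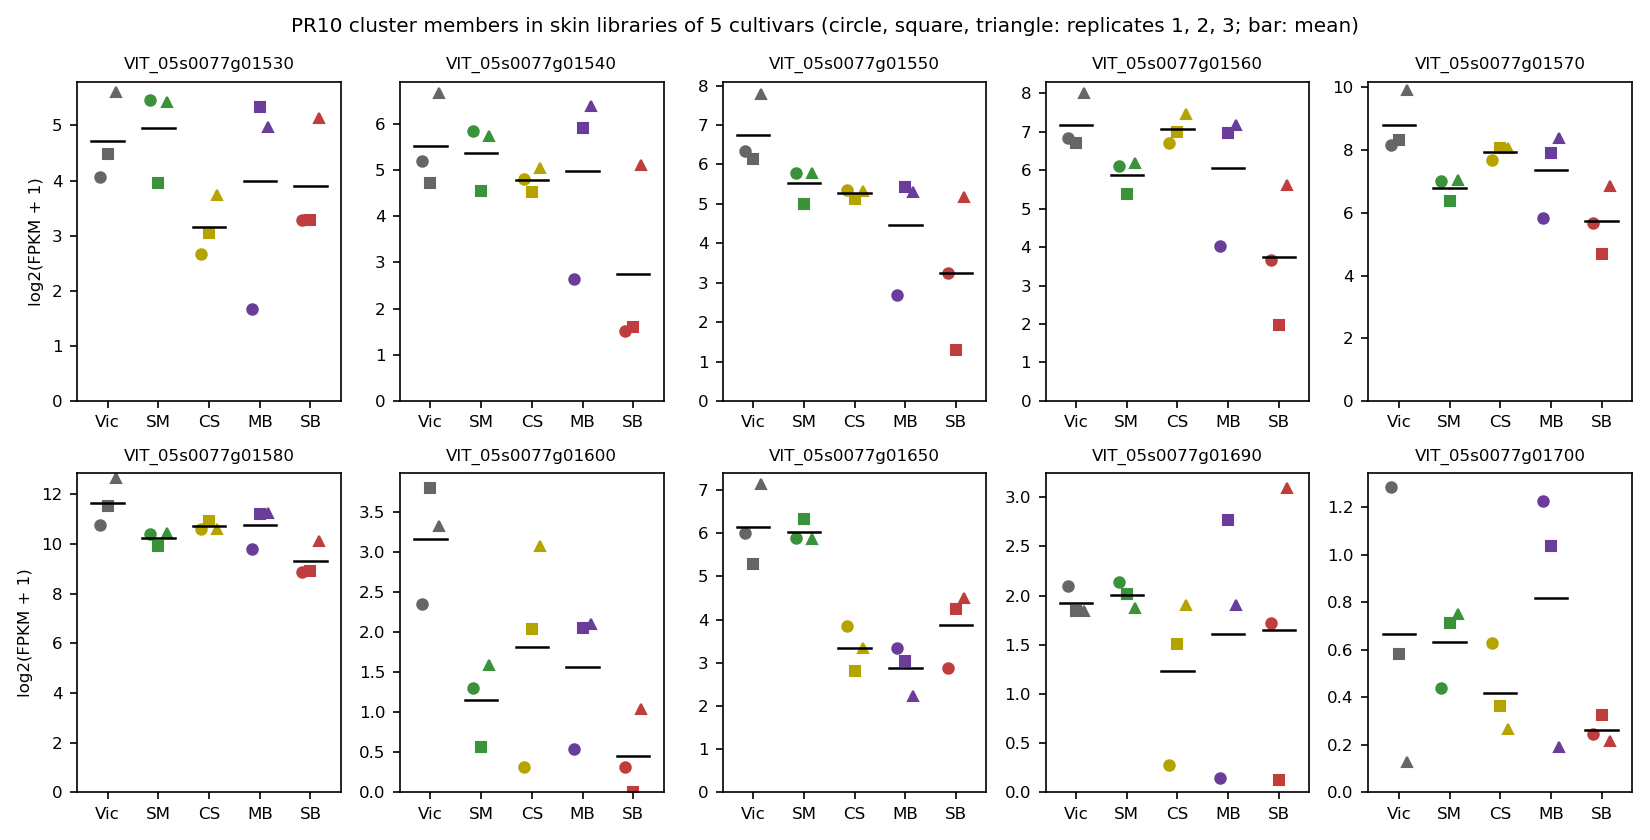
Level of each PR10 member, log2(FPKM + 1) on the vertical axis, in the 5 cultivars (abbreviated as in the plot of summed levels), with 1 point per library and a bar at the cultivar mean. The members g01550, g01560, g01570, g01580 and g01600 fall from Victoria to Summer Black, whereas g01650 is high in Victoria and Shine muscat and low in the other cultivars.

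The spread between libraries of 1 cultivar was wide for the members. Their median coefficient of variation was 66.0% in Victoria, against 20.5% for all genes tested. In Summer Black it was 99.9% against 24.1%, in Midknight Beauty 71.9% against 21.3%, in Centennial Seedless 33.6% against 20.1%, and in Shine muscat 28.8% against 11.8%. Within a cultivar, the same library was often the highest or the lowest for several members. Victoria replicate 3 was the highest Victoria library for 7 members, Summer Black replicate 3 the highest Summer Black library for 9, Midknight Beauty replicate 1 the lowest of its cultivar for 8, and Shine muscat replicate 2 the lowest of its cultivar for 7. The matching shares over all genes were not computed, so a shift of the whole library cannot be told apart. Most members also varied together, so these counts are not separate observations.

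Differences among the 5 cultivars were tested with limma on log2(FPKM + 1), and p-values were adjusted after Benjamini and Hochberg over the 18238 genes. Only g01650 passed an adjusted p of 0.01 in the F test over all cultivars (F = 19.2, adjusted p = 0.000296), where 25.5% of all genes passed. The adjusted p was 0.0174 for g01570 and 0.0187 for g01580. It was 0.0314 for g01560, 0.0340 for g01600 and 0.0411 for g01550. For g01540, g01530, g01700 and g01690 it lay between 0.161 and 0.851. The count of members that passed rose to 2 without Victoria replicate 1 or without Centennial Seedless replicate 1, to 3 without Summer Black replicate 3 and to 4 without Midknight Beauty replicate 1.

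A member was called between a pair of cultivars where the log2 difference was at least 2 in either direction and the adjusted p at most 0.01. Against Victoria, 5 of 40 tests of a member in a cultivar were called, all of them lower than in Victoria, and 1.79% of all such tests over the table were called. Summer Black gave 3 of the 5 calls (g01570, g01580 and g01650), where 2.45% of all genes were called and 1.39% were called lower. Centennial Seedless and Midknight Beauty gave 1 call each, g01650 in both, where 1.22% and 1.06% of all genes were called (0.707% and 0.554% lower). Shine muscat gave none, with 2.43% of all genes called, and 3 members at an unadjusted p under 0.05, where 33.8% of all genes were. All 4 comparisons share the same Victoria libraries. The spread in these tests was pooled over all 15 libraries. When only the 2 cultivars of a comparison were fitted, none of the 5 remained and their adjusted p lay between 0.0274 and 0.0658. Single libraries also set the count, which was 1 without Victoria replicate 3, 3 without Victoria replicate 2, 2 without Summer Black replicate 1 or 2, and 8 without Midknight Beauty replicate 1. Without Summer Black replicate 3, Summer Black alone gave 5 calls.

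**Figure D3:**
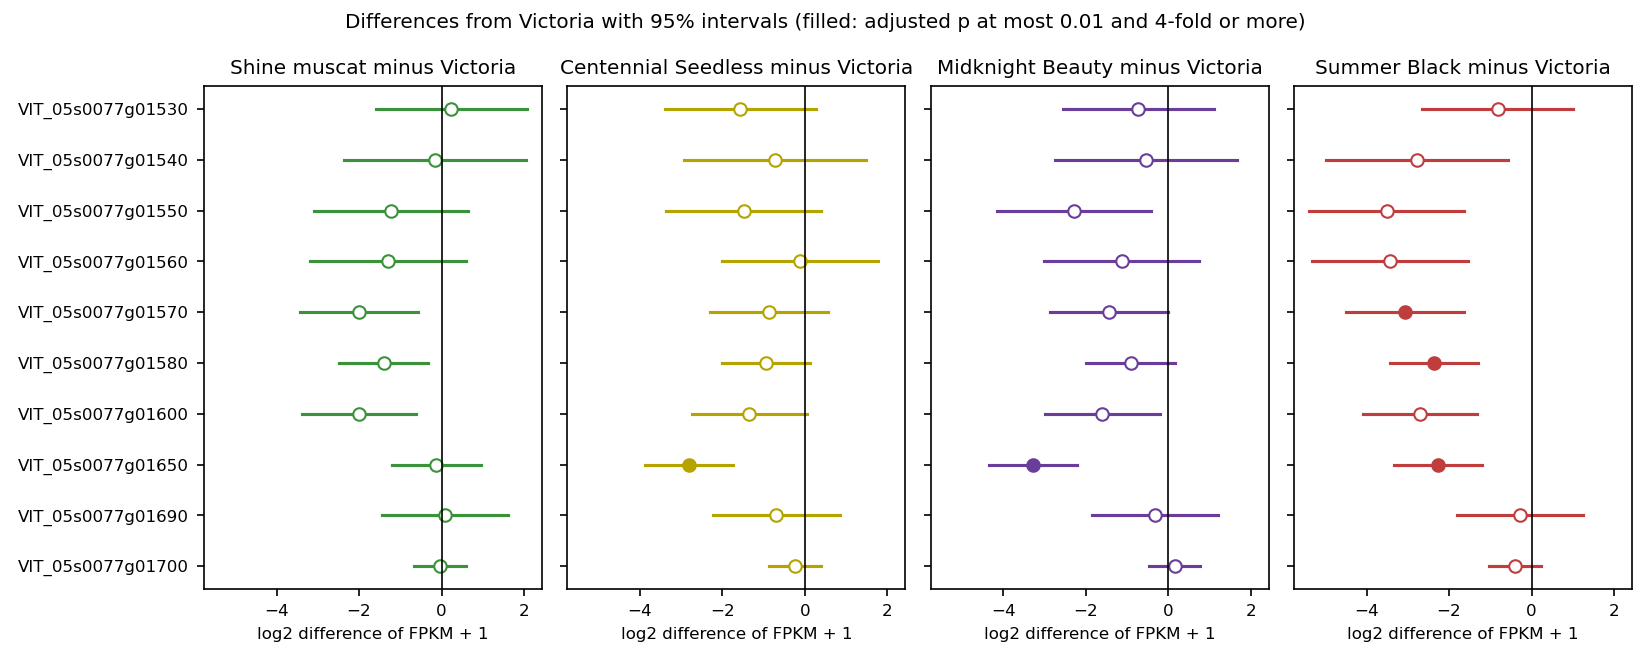
Log2 difference of FPKM + 1 between each of 4 cultivars and Victoria (horizontal axis) for the 10 members, with 95% intervals from the fit of 15 libraries. Filled points mark the 5 calls, 3 of them in Summer Black and g01650 in Centennial Seedless and Midknight Beauty, and the points of Summer Black lie farthest to the left for 7 members.

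The strongly expressed middle of the row, g01550 to g01580, was lowest in Summer Black. For g01580, the libraries of Victoria gave 1731, 2971 and 6478 FPKM and those of Summer Black 462, 479 and 1115 FPKM. The groups did not overlap, and the spread of Victoria was the wider on the FPKM scale. The log2 difference was -2.36 (SE 0.49, 95% interval -3.43 to -1.29, limma adjusted p = 0.00505). Without Victoria replicate 3, the highest library of all, it was -1.85 with an adjusted p of 0.0201. Leaving out Victoria replicate 2 or Summer Black replicate 1 or 2 also ended the call, with adjusted p between 0.0179 and 0.0219.

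In the muscat cultivars g01580 took levels between these ends. Shine muscat gave 1338, 975 and 1370 FPKM, Centennial Seedless 1537, 1961 and 1549 FPKM, and Midknight Beauty 875, 2334 and 2446 FPKM. All 3 libraries of Shine muscat lay below the lowest of Victoria, whereas those of the other 2 cultivars overlapped Victoria. None of these passed against Victoria, with log2 differences of -1.41 in Shine muscat (adjusted p = 0.0608), -0.94 in Centennial Seedless (0.343) and -0.91 in Midknight Beauty (0.332). The intervals reached from -2.48 to -0.34, from -2.01 to 0.12 and from -1.98 to 0.16.

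The neighbour g01570 showed the same order of the ends at a lower level. Victoria gave 285, 322 and 973 FPKM and Summer Black 49.6, 24.9 and 115 FPKM, again without overlap. The log2 difference was -3.07 (SE 0.66, adjusted p = 0.00585), and it lost its call without Victoria replicate 2 or 3 or Summer Black replicate 1 or 2 (adjusted p 0.0145 to 0.0262). Shine muscat, at 127, 81.8 and 130 FPKM, also lay wholly below Victoria, with an interval of the log2 difference from -3.43 to -0.57 and an adjusted p of 0.0472. Centennial Seedless, at 205, 265 and 270 FPKM, lay wholly below Victoria too, with a log2 difference of -0.87 and an adjusted p of 0.577. Midknight Beauty, at 55.5, 241 and 332 FPKM, overlapped Victoria. The level of g01570 stayed in a narrow band relative to g01580, with log2 ratios between -4.27 and -2.52 over the 15 libraries.

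Both g01550 and g01560 had larger log2 differences in Summer Black than g01580 and a wider spread, and neither was called in the fit of 15 libraries. For g01560, Victoria gave 114, 103 and 256 FPKM and Summer Black 11.6, 2.92 and 48.4 FPKM, and the groups did not overlap. The log2 difference was -3.43 (SE 0.87) with an adjusted p of 0.0148. For g01550, at 80.7, 69.0 and 219 FPKM in Victoria against 8.50, 1.46 and 35.1 FPKM in Summer Black, it was -3.51 (SE 0.87) with an adjusted p of 0.0127. Summer Black replicate 3 was the highest of its cultivar for both genes, as it was for g01580. Without that library both were called against Victoria (limma adjusted p = 0.00299 for g01550 and 0.00407 for g01560). Both were also called without Midknight Beauty replicate 1 (0.00591 and 0.00476). Centennial Seedless held g01560 at 136 ± 37.3 FPKM (SD, n = 3), near the 158 ± 85.2 FPKM of Victoria, whereas Shine muscat held 59.8 ± 17.0 FPKM. In g01550 all 9 libraries of the muscat cultivars, from 5.39 to 54.5 FPKM, lay below the lowest Victoria library. It was the sole member without overlap between the muscat group and Victoria, where 5.41% of all genes did not overlap.

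At the start of the row, neither g01530 nor g01540 was called in any comparison. The levels of g01530 were 28.2 ± 16.9 FPKM in Victoria, 33.2 ± 16.2 in Shine muscat, 24.0 ± 19.4 in Midknight Beauty, 17.1 ± 14.5 in Summer Black and 8.32 ± 3.63 in Centennial Seedless (SD, n = 3 each). For g01540, Summer Black held 1.84, 2.03 and 33.7 FPKM, so that its replicate 3 alone reached the range of the other cultivars. Midknight Beauty showed the same kind of split for g01540, with 5.23 FPKM in replicate 1 against 59.3 and 82.7 FPKM in its other libraries. The log2 difference of g01540 between Summer Black and Victoria was -2.78 (SE 1.02, adjusted p = 0.0752).

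Taking all members against Victoria, 8 of 10 had a negative log2 difference in Shine muscat, 10 in Centennial Seedless, 9 in Midknight Beauty and 10 in Summer Black. The median member difference was -0.69 in Shine muscat, where the median over all genes tested was 0.10. It was -0.91 in Centennial Seedless against 0.01 for all genes, -1.02 in Midknight Beauty against -0.01, and -2.53 in Summer Black against -0.02. Median-of-ratios scaling moved the median of all genes in Shine muscat from 0.10 to -0.01, and the member median there to -0.82. In Summer Black 6 members did not overlap with Victoria (g01550, g01560, g01570, g01580, g01600 and g01650), where 31.7% of all genes did not. In Shine muscat 5 did not overlap, with a background of 44.0%. In Centennial Seedless there were 4 and in Midknight Beauty 3, with backgrounds of 22.7% and 22.8%.

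The gene g01650 followed another pattern, with 2 levels among the cultivars that did not follow aroma type or skin colour. Whether these levels go with another trait of the cultivars, such as seedlessness, was not tested. Victoria held 63.6, 38.3 and 141 FPKM and Shine muscat 58.5, 78.8 and 57.2 FPKM. Centennial Seedless held 13.5, 5.98 and 9.15 FPKM, Midknight Beauty 9.19, 7.30 and 3.66 FPKM, and Summer Black 6.41, 18.0 and 21.7 FPKM. Every library of Victoria and Shine muscat was above every library of the other 3 cultivars, and Victoria and Shine muscat overlapped.

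Against Victoria, the log2 difference of g01650 was -3.28 in Midknight Beauty (SE 0.50, 95% interval -4.35 to -2.21, limma adjusted p = 0.000953). In Centennial Seedless it was -2.82 (adjusted p = 0.00251) and in Summer Black -2.27 (adjusted p = 0.00635). Between Shine muscat and Victoria it was -0.13 with an interval from -1.20 to 0.94 (adjusted p = 0.896), and its sign turned without Victoria replicate 3. The call in Midknight Beauty held with each of the 15 libraries left out in turn. That in Centennial Seedless was lost without Victoria replicate 3, or without Centennial Seedless replicate 2 or 3 (adjusted p 0.0106 to 0.0165). That in Summer Black was lost without Victoria replicate 1 or 3, Shine muscat replicate 1 or 3, or Summer Black replicate 1 or 2 (0.0104 to 0.0256).

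Between the 6 other pairs of cultivars, 3 of 60 tests of members were called, with 2.45% called over the whole table. All 3 were g01650, higher in Shine muscat. The pairs among Centennial Seedless, Midknight Beauty and Summer Black gave no call, where 1.29%, 2.71% and 2.69% of all genes were called between Centennial Seedless and Midknight Beauty, Centennial Seedless and Summer Black, and Midknight Beauty and Summer Black. At an unadjusted p under 0.05 in limma these pairs held 0, 4 and 4 members, with 23.1%, 34.1% and 37.7% of all genes. The log2 difference of g01650 was 3.15 over Midknight Beauty (adjusted p = 0.000663, 2.10% of all genes called, 1.14% higher), and this call held with any library left out and when only these cultivars were fitted. It was 2.69 over Centennial Seedless (adjusted p = 0.00218, 2.24% called, 1.26% higher), lost without Shine muscat replicate 1 or 2 or Centennial Seedless replicate 2. Over Summer Black it was 2.14 (adjusted p = 0.00617, 3.64% called, 2.26% higher), lost without any 1 library of Shine muscat or without Summer Black replicate 1 or 2, in the fit of these cultivars alone (adjusted p = 0.0127) and under median-of-ratios scaling (log2 difference 1.99, adjusted p = 0.0113). The count of 3 fell to 1 without Shine muscat replicate 1 or 2. Among the low cultivars, the log2 difference of g01650 was 0.46 between Centennial Seedless and Midknight Beauty and 0.54 between Summer Black and Centennial Seedless. Both were within the spread. The largest, for Midknight Beauty minus Summer Black, was -1.01 (SE 0.50, 95% interval -2.08 to 0.06, limma adjusted p = 0.156). The largest difference of another member in these pairs was that of g01560 between Centennial Seedless and Summer Black, at 3.31 with an adjusted p of 0.0171. It was called without Midknight Beauty replicate 1 or Summer Black replicate 3 (limma adjusted p = 0.00544 and 0.00450).

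The level of g01650 relative to g01580 ordered the cultivars differently from g01650 alone. As a log2 ratio of FPKM it was -4.51, -3.63 and -4.58 in Shine muscat, where g01650 was high and g01580 moderate. It was -4.77, -6.28 and -5.52 in Victoria and -6.17, -4.73 and -5.69 in Summer Black. Victoria and Summer Black, the highest and the lowest cultivar for g01580, overlapped in this ratio. In Centennial Seedless the ratio was -6.83, -8.36 and -7.40 and in Midknight Beauty -6.57, -8.32 and -9.38. All libraries of Shine muscat lay above all libraries of Victoria, Centennial Seedless, Midknight Beauty and Summer Black in this ratio. No test was run on it.

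**Figure D4:**
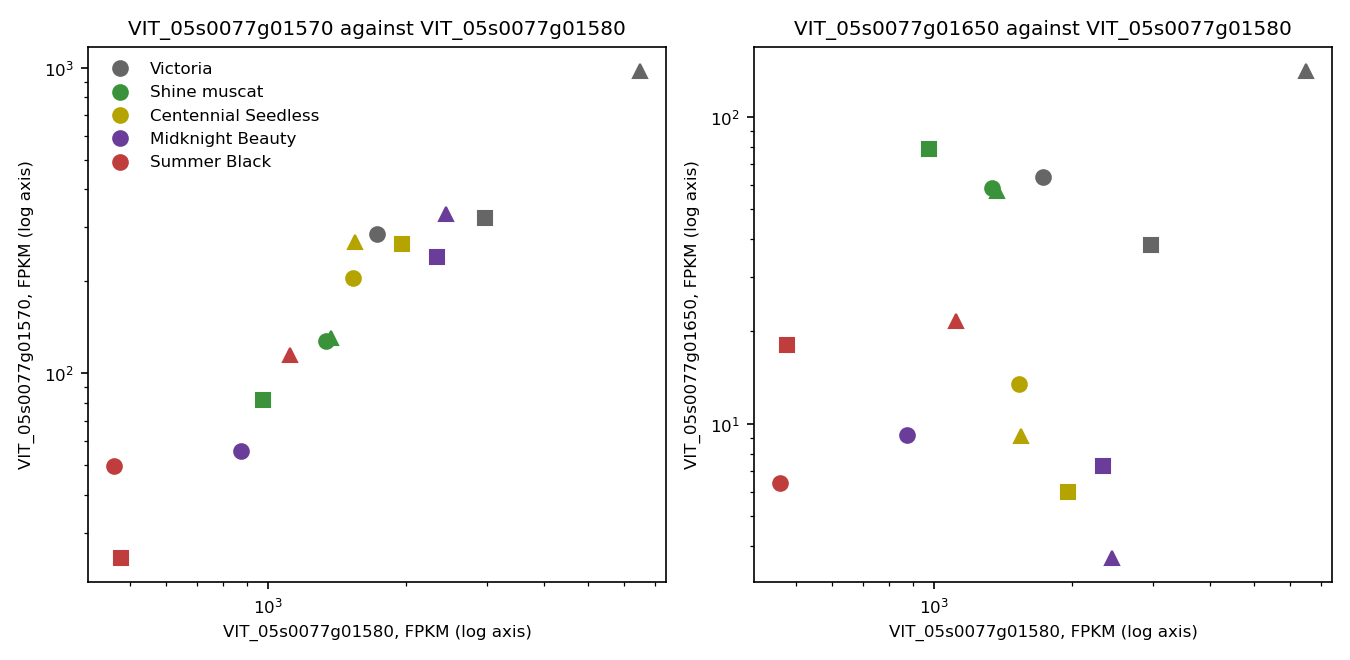
FPKM of g01570 (left) and of g01650 (right) against FPKM of g01580, both axes logarithmic, with 1 point per library, coloured by cultivar and with circles, squares and triangles for replicates 1, 2 and 3. The points of g01570 follow g01580 over all cultivars, whereas those of g01650 lie high in Shine muscat and Victoria, from 38.3 to 141 FPKM, and at 21.7 FPKM or lower in the other cultivars.

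The 3 muscat cultivars as a group were compared with Victoria in a separate fit, 9 libraries against 3, in which differences between the muscat cultivars count as spread. This fit took the 9 libraries as independent although they come from 3 cultivars, so its p-values can be too small. Libraries of the same cultivar had an estimated correlation of 0.44 over all genes tested. No member was called, and 0.258% of all genes were. At an unadjusted p under 0.05 there were 5 members, all lower in the muscat group, where 13.6% of all genes had such a p and 6.08% were lower with it. The log2 difference was -1.09 for g01580 (SE 0.39, adjusted p = 0.210) and -1.43 for g01570 (SE 0.54, adjusted p = 0.235). For g01650 it was -2.07 (SE 0.86, adjusted p = 0.300), with Shine muscat at the level of Victoria and the other 2 muscat cultivars below it. With the mean of the 3 muscat cultivars taken from the fit of 15 libraries, where differences between them are not part of the spread, g01650 was called (adjusted p = 0.00459). The median member difference was -0.97, against 0.04 for all genes tested, and all 10 members were lower in the muscat group.

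The weakly expressed members, g01600, g01690 and g01700, gave no call in the fit of 15 libraries. Victoria held g01600 at 4.10, 13.0 and 9.09 FPKM, and Summer Black at 0.249, 0 and 1.07 FPKM, without overlap. The log2 difference, which the pseudocount of 1 shrinks at this level, was -2.71 (SE 0.64) with an adjusted p of 0.0103, and under median-of-ratios scaling the adjusted p was 0.00942. It was called without Victoria replicate 1, Centennial Seedless replicate 1 or 3, or Midknight Beauty replicate 1 (limma adjusted p 0.00301 to 0.00983). Centennial Seedless spread from 0.247 to 7.46 FPKM in this gene. For g01690 the cultivar means lay between 1.61 and 3.32 FPKM, with single libraries of Centennial Seedless, Midknight Beauty and Summer Black at 0.217, 0.108 and 0.0943 FPKM. Victoria and Shine muscat stayed between 2.58 and 3.39 FPKM. For g01700 all cultivar means were under 1 FPKM.

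Across the 15 libraries, the 7 members from g01530 to g01600 varied together. Pearson's r of log2(FPKM + 1) over their 21 pairs was between 0.47 and 0.96, with a median of 0.83. With each cultivar's mean subtracted it was between 0.50 and 0.98, with a median of 0.87, so that the libraries of 1 cultivar carried the joint variation as well. The gene g01650 stood apart, with r between 0.16 and 0.50 to these 7 and between -0.31 and 0.22 after subtracting cultivar means. For g01690 the values were 0.34 to 0.77 and 0.57 to 0.87. The deviations of g01700 ran against those of the 7, with r between -0.72 and -0.45, at a level where FPKM are poorly determined. These coefficients describe 15 libraries that share cultivars, vineyard and counting, and any reads shared between members can raise them.

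The row of identifiers between VIT_05s0077g01500 and VIT_05s0077g01750 holds 15 other genes, of which 9 passed the filter and 2 were listed at 0 in all libraries. The files give none of them a name. Those ending in g01590, g01620, g01630, g01640, g01660, g01670 and g01680 lie within the range of the members. Of these, only g01670 and g01680 passed the filter. Among all 15, a mean of at least 10 FPKM was reached by 3, VIT_05s0077g01500, VIT_05s0077g01670 and VIT_05s0077g01710. The first ranged from 58.4 to 143 FPKM and the last from 13.8 to 21.8 FPKM over the libraries, and neither passed the F test over cultivars (adjusted p = 0.138 and 0.253). VIT_05s0077g01670, numbered shortly after g01650, was at 63.3 ± 2.03 FPKM in Shine muscat and 34.0 ± 16.7 in Victoria (SD, n = 3). It was at 18.2 ± 2.23 FPKM in Midknight Beauty, 9.69 ± 2.42 in Summer Black and 3.90 ± 0.34 in Centennial Seedless, and passed the F test (adjusted p = 1.54e-06). Its level, like that of g01650, was highest in Shine muscat and Victoria, with r = 0.74 to g01650 and 0.27 to g01580 over the 15 libraries. With cultivar means subtracted the order was the other way, with r = 0.54 to g01650 and 0.74 to g01580. In Shine muscat it was 0.98 above Victoria on the log2 scale (adjusted p = 0.0161), and in Centennial Seedless 2.74 below (log2 difference -2.74, adjusted p = 1.47e-05).

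Outside the row, the gene whose log2(FPKM + 1) was most like that of the summed members over the 15 libraries was VIT_17s0000g01410 (Pearson's r = 0.968). It was followed by VIT_16s0100g01100 (r = 0.962) and VIT_18s0166g00250 (r = 0.945). The last had 150 ± 76.2 FPKM in Victoria and 2.38 ± 2.93 in Summer Black (SD, n = 3). VIT_17s0000g01410 was also the closest gene to g01580 (r = 0.964) and to g01570 (r = 0.947), at 0.292 to 5.90 FPKM. For g01540 and g01560 the closest genes were VIT_06s0004g01020 (r = 0.957) and VIT_06s0004g01010 (r = 0.931), which are adjacent in the numbering. For g01600 it was VIT_10s0003g02810 (r = 0.952), for g01550 VIT_11s0016g03080 (r = 0.936), for g01690 VIT_16s0100g00900 (r = 0.921), for g01700 VIT_03s0038g04110 (r = 0.867) and for g01530 VIT_15s0048g00510 (r = 0.850).

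The gene closest to g01650 was VIT_00s0921g00020 (r = 0.912). It held 14.5 ± 0.46 FPKM in Shine muscat and 10.8 ± 0.95 in Victoria, against 2.29 ± 0.50 in Centennial Seedless, 2.31 ± 0.65 in Midknight Beauty and 2.21 ± 0.92 in Summer Black (SD, n = 3). Its 2 levels thus fell on the same cultivars as those of g01650. These genes were picked as the highest of 18228 coefficients each, so the values are a description and carry no test.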

How the data were processed

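RNA of grape skin was sequenced in 15 libraries of 5 cultivars. The authors deposited 1 table of FPKM per gene, with 31924 genes, of which 1997 were newly assembled, and read counts are not part of it. The labels name HISAT2 and StringTie without versions and an RNeasy and SMARTER preparation, whereas the study's methods name Bowtie2 with RSEM on the PN40024 genome and a NEBNext Ultra kit. Which of them made the table was not settled. Libraries were grouped by the cultivar label, and aroma types were taken from the study. Replicates came from several bunches and vines of a single vineyard, so p-values measure the spread between these samples. No library pair held identical values.

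FPKM were used as deposited. Genes with at least 1 FPKM in at least 3 libraries (18238) were tested on log2(FPKM + 1) with limma 3.58.1 (lmFit, eBayes with trend) in R 4.3.3, in 1 fit of 5 cultivars, with p-values of each comparison adjusted after Benjamini and Hochberg over all tested genes. The thresholds, a log2 difference of 2 and an adjusted p of 0.01, are those of the study's results. The study's own test needs counts and was not run. The muscat group was compared with Victoria in a fit of 12 libraries. Low values of a gene were not whole multiples of 1 step (the largest bin of ratios held 1.52% to 4.98% of genes), so reads were not recovered and depth gives no interval here. Levels and correlations were computed with Python 3.11.15, numpy 2.4.6, pandas 2.3.3 and scipy 1.17.1, and figures with matplotlib 3.10.9. The limma steps were tested on simulated data.

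All 10 members were named. Genes in the same run of identifiers were named from a mean of 10 FPKM, as were the 3 genes most correlated with the summed members and the 1 most correlated with each member. Members, lists and tests were chosen with earlier results of these data known. Alternatives were a pseudocount of 0.1, no filter or one at 5 FPKM, median-of-ratios and quantile scaling, no variance trend, other thresholds, fits of 2 cultivars, a random effect of cultivar (statmod 1.5.0), a block for the replicate number, and each library left out. The RefSeq gene table used for names (29591 genes) matched 0 of the identifiers. It lists 8 PR10 symbols, all on chromosome 5 within a run of 12 genes, 3 of them pseudogenes. Sequences and coordinates of the members are therefore not given.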

Additional observations from a re-analysis of the deposited data

Results flagged for a closer look

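In the 9 libraries of the muscat cultivars, single values stood apart from the others by Dixon's criterion for 2 of 11 items tested (the 10 members and their sum). The criterion flags about 1 in 20 groups of independent, normally distributed values. The libraries here come from 3 cultivars and the items vary together, so this rate cannot tell whether 2 of 11 is many. The first was the lowest value of VIT_05s0077g01550, 5.39 FPKM in Midknight Beauty replicate 1. The second was the highest value of VIT_05s0077g01600, 7.46 FPKM in Centennial Seedless replicate 3. Midknight Beauty replicate 1 was also the lowest library of its cultivar for 8 of 10 members.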

How the results depend on the processing

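In the reported fit, 1 member differed among the cultivars, 5 tests were called against Victoria, 3 between the other pairs and 0 in the muscat group. The count against Victoria was 2 at a log2 difference of 1 with adjusted p 0.005, and 0 in fits of 2 cultivars. The mean of the 3 muscat cultivars in the fit of all cultivars gave 1 call against Victoria. With the replicate number as a block, 4 members differed among the cultivars, with 7 calls against Victoria and 3 between other pairs. The block ended the calls of VIT_05s0077g01650 in Summer Black against Victoria (adjusted p = 0.0113) and in Shine muscat against Summer Black (0.0112). It added VIT_05s0077g01550, VIT_05s0077g01560 and VIT_05s0077g01600 in Summer Black against Victoria (0.00304 to 0.00799) and VIT_05s0077g01560 in Centennial Seedless against Summer Black (0.00785). Whether the numbers pair the libraries over the 5 cultivars was not settled. Of 30 pairs of same-numbered libraries, 13 had deviations correlated over 0.1 (range -0.35 to 0.60), and 9 of 15 libraries correlated best with their own number. These counts were not set against a rate for differently numbered libraries. Centennial Seedless and Midknight Beauty were the 1 pair of cultivars with all 3 correlations over 0.1 (0.22 to 0.60), and no member was called between them with or without the block. With cultivar as a random block the muscat group had 0 calls. With each library left out in turn the counts ranged from 1 to 4 for the F test, 1 to 8 against Victoria, 1 to 4 between other pairs and 0 to 0 for the muscat group. The causes of these changes were not tested. Fits of 2 cultivars hold fewer libraries and take the spread from those libraries only. Differences near 0 changed sign. That of VIT_05s0077g01580 between Centennial Seedless and Midknight Beauty (-0.03) became 0.17 under quantile normalization and ranged from -0.52 to 0.23 with libraries left out. That of VIT_05s0077g01570 between the same cultivars (0.57) ranged from -0.21 to 1.07, being negative without Midknight Beauty replicate 1, and that of VIT_05s0077g01650 between Shine muscat and Victoria (-0.13) ranged from -0.55 to 0.37, being positive without Victoria replicate 3. A filter at 5 FPKM left 8 members to test. Without read counts the precision of low values such as those of VIT_05s0077g01700 is unknown.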
